A study of Oryza sativa Japonica Group with 6 samples.

Results

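The rice homeobox genes named HOX, ROC, OSH and WOX were followed in mature anthers of the dao mutant and of wild type. Members were all genes with a symbol or synonym, any leading Os dropped, made of one of these 4 words and a number, a rule that uses no measured value, although earlier results of these data were known when it was set. The gene table holds 51 such genes, and 46 of them had a probe set listed for that gene alone on the Affymetrix rice genome array. These 46 genes, of 17905 with a probe set of their own, had 58 of the 57258 probe sets of the array that are not controls: 33 for 25 HOX genes, 9 for 8 ROC genes, 8 for 6 OSH genes and 8 for 7 WOX genes. HOX3, ROC9, OSH10 and WOX5 had no probe set in the gene table used here. OSH15 was listed only on a probe set shared with another gene, as was a further probe set of HOX29, so these 2 probe sets were left unnamed and are not counted.

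Homeobox genes encode transcription factors that bind DNA through a homeodomain. The HOX genes of rice are not counterparts of the animal Hox clusters: their products join the homeodomain to a leucine zipper, and they form the plant subfamilies HD-Zip I (linked to water deficit, abscisic acid and growth), HD-Zip II (linked to auxin and shade responses) and HD-Zip III (large proteins of vascular, leaf-polarity and meristem development, whose transcripts are cut by the microRNA miR166). ROC genes are the HD-Zip IV subfamily and act mainly in the epidermis. OSH genes are the KNOX class, whose founding members keep shoot meristem cells undetermined, and WOX genes act in stem cell niches and in the outgrowth of organs.

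The series held 3 dao arrays and 3 wild-type arrays, 1 sample each, of total RNA from mature anthers at anthesis of a japonica variety. Seeds of both genotypes were soaked for 3 days before the plants were grown to flowering in the field, and the titles call the samples biological replicates. DAO encodes a dioxygenase that oxidises the auxin indole-3-acetic acid, and the comparison asks which anther transcripts differ when it is mutated. Neither the allele nor the number of plants behind each sample is given in the labels. A free-text field of the labels names seedlings of 3 weeks, called Epi-df for the dao samples, against the anthers named in every title, source name and tissue field. DAO itself had a signal of 1551, 1168 and 1391 on the dao arrays, against 480, 883 and 686 on the wild-type arrays. The place of its probes relative to the lesion is unknown, so this does not check the labels.

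Signals are the deposited intensities on a linear scale, 1 per probe set and array, with medians of 8.80 to 9.31 over the arrays. Signals of different probe sets are not comparable amounts of RNA, and only the same probe set is compared between arrays. EXPB9 and EXPB10, beta-expansins of rice pollen, were bright on every array (EXPB9 11242 to 11540 in dao and 12506 to 13036 in wild type). The 4 pollen and anther probe sets summed to 18599, 16737 and 18261 in dao, against 21458, 19218 and 20261 in wild type. Most of this sum came from EXPB9 and EXPB10. Of the 4, the actin-binding ADF5 was past the threshold and higher in dao. INV4 was lower in dao without overlap and did not pass (log2 -0.66, adjusted p = 0.0512 by limma). The carpel gene DL stood between 11.7 and 16.7 on all 6 arrays, while the ovule gene MADS13 had signals of 29.4, 20.4 and 26.1 in dao, against 5.49, 6.58 and 6.47 in wild type (log2 2.02, adjusted p = 0.00212). MADS58, the brightest gene of the carpel and ovule list, read 739, 743 and 717 in dao, against 490, 744 and 631 in wild type. Its groups overlapped (log2 0.26, adjusted p = 0.325 by limma), and MADS21 was dim and not tested. The 4 carpel and ovule probe sets summed to 787, 783 and 761 in dao, against 515, 766 and 657 in wild type. In whole anthers, fewer cells of a type and less RNA per cell cannot be told apart. The summed signal of 6 tapetum probe sets, for 6 genes with 0 of 5 tested probe sets past the threshold, was 6094, 2295 and 5031 on dao arrays 1, 2 and 3, against 2453, 2392 and 2435 on the wild-type arrays. That of 8 green-leaf probe sets, for 4 genes with 0 of 6 tested past it, was 4259, 1136 and 3144 on the dao arrays, against 2755, 1337 and 1807 in wild type. Dao array 2 thus differed from dao arrays 1 and 3 in these sums. In wild type the leaf sum was lowest on array 2 as well. Most of the tapetum sum came from 1 probe set, that of RTS, with 4684, 1541 and 3822 in dao.

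The third arrays were unusual in both groups. Over the 34355 probe sets tested, replicate 3 lay between the other 2 arrays of its group in 55.2% in dao and 52.5% in wild type. Without both arrays numbered 3, limma passed 0 probe sets on adjusted p, the lowest being 0.168, and 3493 had an unadjusted p under 0.05. Among the tested homeobox probe sets replicate 3 was the middle one in 19 of 36 in dao and in 21 of 36 in wild type. If the third arrays are not independent samples, the p-values that follow are too small, and they measure only the spread between these samples.

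Most homeobox genes were either near the low end of the signal scale or differed by less than 2-fold. The test covered probe sets with a mean log2 signal at or above the 40th percentile, a geometric mean of about 6.33, which 36 of the 58 homeobox probe sets (31 genes) reached. Of these 36, 1 was higher in dao and 0 lower at the threshold of a 2-fold difference and an adjusted p of 0.05 (limma, Benjamini-Hochberg over all probe sets tested), beside 3.37% of all probe sets tested, 2.03% higher and 1.34% lower. By limma 20 of the 36 had an unadjusted p under 0.05, against 9075 of the 34355. On adjusted p alone 5 were higher and 1 was lower, beside 9.89% of all probe sets tested, 6.53% higher and 3.35% lower. Every homeobox probe set has a named gene, and among the 18330 tested with 1 listed gene the shares were 2.95% higher and 0.797% lower at the threshold, and 9.92% higher and 2.65% lower on adjusted p alone. Over all 58, with no filter, the median log2 difference was 0.11, beside -0.02 over all 57258 probe sets and 0.07 over the 22436 probe sets with 1 listed gene. Of the 58, 39 were higher on average in dao and 19 lower. With no filter, 45.2% of all probe sets and 59.8% of those with 1 listed gene were higher on average in dao.

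**Figure D1:**
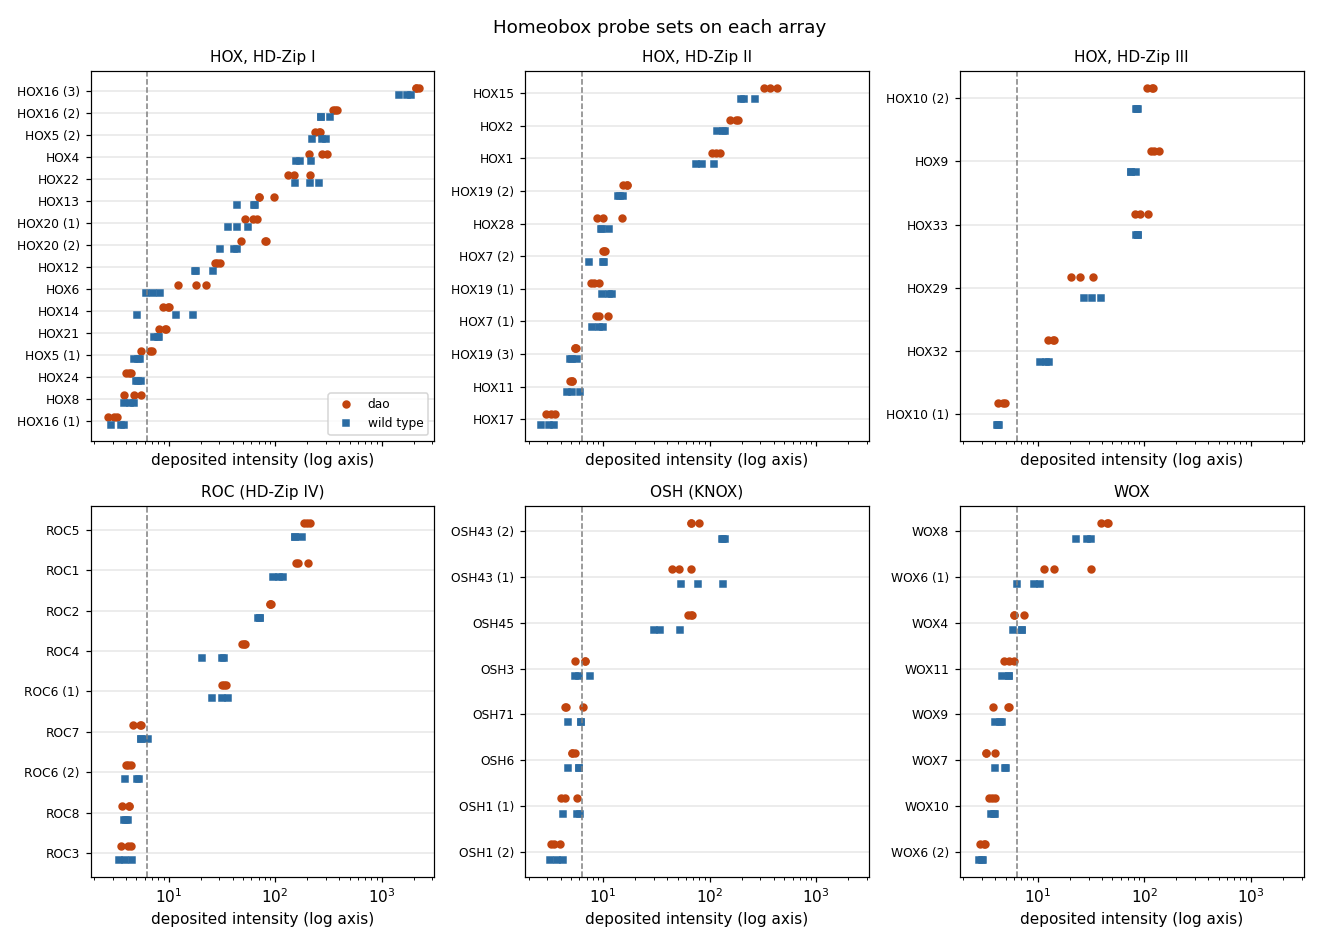
Deposited intensity (log axis) of each of the 58 homeobox probe sets, in panels by class, with the 3 dao arrays as circles and the 3 wild-type arrays as squares; the dashed line is the lowest geometric mean signal tested (6.33), and a number in brackets tells apart the probe sets of one gene. Most OSH and WOX probe sets lie left of the line in both groups, while most HOX probe sets lie right of it.

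The 22 homeobox probe sets that were not tested had signals from 2.60 to 7.47 over all arrays, so both groups were dim, and whether such signals are above background is unknown. They include the 4 KNOX genes OSH1, OSH3, OSH6 and OSH71, known from shoot meristems and their surroundings, and the WOX genes WOX7, WOX9 (also called QHB, a gene of the root quiescent centre), WOX10 and WOX11 (an activator of crown root growth). OSH1, which maintains the shoot meristem, had signals of 4.0, 5.74 and 4.36 in dao, against 4.24, 6.07 and 5.72 in wild type on its brighter probe set. The other probe set of OSH1 lay at 3.18 to 4.16 over all 6 arrays. OSH3, which lies near OSH1 in the gene order with 1 gene between them, was not tested either (5.47 to 7.47 over all 6 arrays). The receptor kinase gene FON1, which limits floral meristem size and was the measured non-member of the meristem list, had signals of 21.4, 49.6 and 31.1 in dao and 30.0, 30.9 and 31.6 in wild type (log2 0.06, adjusted p = 0.923).

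HD-Zip I was the largest subfamily, with 16 probe sets for 12 genes, of which 12 probe sets were tested. By limma 1 of the 12 was past the threshold, beside 3.37% of all probe sets tested. An unadjusted p under 0.05 was found for 7 of the 12, against 9075 of 34355. HOX6 was the 1 gene past the threshold, in the subfamily and among the 31 homeobox genes with a tested probe set. Its signal was 22.4, 12.3 and 18.2 on dao arrays 1, 2 and 3, against 8.38, 6.2 and 7.2 on the wild-type arrays. Every dao array lay above every wild-type array, although both groups were dim, and the dao arrays varied more (17.7 ± 5.09 in dao and 7.26 ± 1.09 in wild type, SD, n = 3 each). HOX6 rose 2.38-fold in dao (log2 1.25, SE 0.23, adjusted p = 0.0181 by limma). The call was lost without dao replicate 1 (log2 1.06, adjusted p = 0.0550), when dao replicate 3 (1.20, 0.0909) or wild-type replicate 3 (1.25, 0.0921) was left out, and without both arrays numbered 3 (1.20, 0.377). With log2(signal + 32), which shrinks the differences of dim probe sets, it stood at 0.33, under the 2-fold limit. The dao arrays ranked 1, 3, 2 in HOX6, as they did in MADS13 and in the summed pollen, tapetum and leaf markers. The carpel and ovule sum (787, 783 and 761) and the meristem gene FON1 (21.4, 49.6 and 31.1) had other orders. Array 3 was the middle dao array in 55.2% of all probe sets tested, so a middle array 3 was common. The part of those markers in the HOX6 difference was not tested.

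The other HD-Zip I genes with clear signal did not pass. HOX16 had signals of 2085, 2229 and 2096 in dao, against 1467, 1895 and 1725 in wild type. All dao arrays were above all wild-type arrays, by 0.34 on the log2 scale (95% interval 0.10 to 0.59, adjusted p = 0.0847), and a second probe set gave the same size of difference (log2 0.34, adjusted p = 0.105). The dimmest probe set of HOX16 lay near 3 on all arrays (2.69 to 3.81). HOX5 had signals of 239, 260 and 264 in dao and 223, 274 and 299 in wild type, with full overlap (log2 -0.05, 95% interval -0.36 to 0.26). A dim second probe set of HOX5, not tested, went the other way without overlap (log2 0.32). It lay at 5.55 to 6.93 in dao and 4.72 to 5.45 in wild type. HOX4, a negative regulator of gibberellin responses in rice, had signals of 310, 209 and 277 in dao, against 157, 219 and 170 in wild type. Here dao array 2 was below wild-type array 2, so the groups overlapped (log2 0.54, adjusted p = 0.111).

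HOX20 was measured by 2 tested probe sets, which gave differences of unlike size. One read 81.9, 47.7 and 80.1 in dao, against 30.4, 44.3 and 41.5 in wild type, a log2 difference of 0.83 (SE 0.25, adjusted p = 0.0769), and its name ends in _x_at, the mark of probe sets that can bind other transcripts. The other read 67.3, 52.4 and 61.8 in dao and 43.8, 55.2 and 35.9 in wild type, with overlapping groups (log2 0.44, adjusted p = 0.191). On the first, dao array 2 was near the wild-type level, and without dao replicate 2 that probe set was past the threshold (log2 1.08, adjusted p = 0.0183). HOX12, an activator of the gibberellin-inactivating gene EUI1, had signals of 27.01, 28.7 and 30.6 in dao, against 17.8, 26.2 and 18.03 in wild type (log2 0.50, adjusted p = 0.136).

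HOX22 and HOX24, which are induced by drought and abscisic acid in rice, were among the few HD-Zip I genes lower on average in dao. HOX22 had signals of 133, 214 and 151 in dao, against 153, 258 and 214 in wild type, with overlap and a log2 difference of -0.33 (95% interval -0.87 to 0.22, adjusted p = 0.431). HOX24 was dim and not tested, at 3.97 to 4.43 in dao and 4.96 to 5.49 in wild type. HOX13 (log2 0.49), HOX14 (-0.07) and HOX21 (0.19) did not pass, and HOX8 was not tested.

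HD-Zip II had 11 probe sets for 8 genes, 8 of them tested, 0 past the threshold by limma and 3 with an unadjusted p under 0.05. Among all probe sets tested, 3.37% were past the threshold and 9075 of 34355 had an unadjusted p under 0.05. HOX15 had signals of 429, 325 and 371 in dao, against 198, 264 and 210 in wild type. The groups did not overlap, and the log2 difference of 0.75 (SE 0.15, adjusted p = 0.0249) was under the 2-fold limit. Its probe set name ends in _s_at, which marks probes shared by several transcripts. HOX2 had signals of 178, 157 and 183 in dao, against 116, 139 and 133 in wild type, also without overlap (log2 0.42, adjusted p = 0.0802). Its immediate neighbour in the gene order is HOX28, another HD-Zip II gene, whose signals of 8.79, 14.99 and 9.94 in dao and 9.59, 11.2 and 9.83 in wild type overlapped (log2 0.10, 95% interval -0.38 to 0.58). HOX1, a regulator of provascular cell fate, read 126, 115 and 106 in dao, against 74.1, 111 and 84.1 in wild type (log2 0.39, adjusted p = 0.200).

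The remaining HD-Zip II probe sets had signals in the low part of the scale. HOX19 had 2 tested probe sets of opposite sign, at log2 0.18 (adjusted p = 0.446) and -0.41 (adjusted p = 0.102), the second with 7.68 to 9.08 in dao and 9.83 to 12.1 in wild type. The 2 tested probe sets of HOX7 stood at log2 0.10 and 0.16, with signals from 7.42 to 11.2. HOX11 and HOX17 were not tested, nor was the dimmest probe set of HOX19.

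HD-Zip III had 6 probe sets for 5 genes, 5 of them tested, 0 past the threshold by limma and 2 with an unadjusted p under 0.05. The shares over all probe sets tested were 3.37% and 9075 of 34355. HOX9 and HOX10, also called HB2 and HB1, belong to the class of the Arabidopsis regulators of leaf polarity and vascular pattern. HOX9 had signals of 138, 123 and 115 in dao, against 75.7, 83.1 and 75.3 in wild type. The wild-type arrays lay close together and all dao arrays were above them, a log2 difference of 0.68 (SE 0.13, adjusted p = 0.0184) that did not reach 2-fold. HOX10 read 119, 121 and 105 in dao, against 83.9, 88.3 and 84.6 in wild type, likewise without overlap (log2 0.42, SE 0.12, adjusted p = 0.0658).

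The other HD-Zip III genes showed smaller or opposite differences. HOX33 read 82.5, 108 and 91.4 in dao and 83.4, 86.5 and 87.6 in wild type (log2 0.12, 95% interval -0.20 to 0.45). HOX32, a gene of leaf rolling, read 12.5 to 14.3 in dao and 10.5 to 12.8 in wild type (log2 0.20, adjusted p = 0.417). HOX29 was lower on average in dao, at 33.1, 20.7 and 24.7, against 27.1, 39.2 and 32.3 in wild type. The groups overlapped (log2 -0.34, adjusted p = 0.376 by limma). The brighter probe set that HOX29 shares with another gene, not counted here, was higher on average in dao, also with overlap (log2 0.28). The difference between HOX9 and HOX29 was not tested.

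Of the 9 ROC probe sets 5 were tested, 1 each for ROC1, ROC2, ROC4, ROC5 and ROC6, while ROC3, ROC7, ROC8 and a second probe set of ROC6 had signals of 3.43 to 6.45 on all arrays. Of the 5 tested, 0 passed the threshold by limma, beside 3.37% of all probe sets tested. By the same fit 4 had an unadjusted p under 0.05, against 9075 of 34355. On adjusted p alone 2 passed, both higher in dao, beside 6.53% of all probe sets tested and 9.92% of those with 1 listed gene. In 4 of the 5, every dao array lay above every wild-type array, beside 17.9% of all probe sets tested and 26.2% of those with 1 listed gene. All 5 had a higher mean in dao, from log2 0.11 to 0.87.

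ROC4, which promotes cuticular wax synthesis in rice, had signals of 51.3, 51.7 and 49.3 in dao, against 31.95, 32.8 and 20.6 in wild type. The dao arrays were nearly equal and wild-type array 3 was the lowest, so the log2 difference of 0.87 (SE 0.20, adjusted p = 0.0354) was 0.67 without both arrays numbered 3 (adjusted p = 0.430). ROC1, which marks the outer cell layer of the rice embryo, had signals of 202, 163 and 159 in dao, against 95.1, 120 and 108 in wild type. Its groups lay apart, at log2 0.70 (SE 0.15, adjusted p = 0.0274), under the 2-fold limit.

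The remaining ROC genes differed less. ROC2 was tightly grouped, at 89.2, 89.7 and 92.1 in dao, against 72.3, 69.4 and 72.9 in wild type (log2 0.34, adjusted p = 0.111). ROC5, which limits the bulliform cells that roll the leaf, read 201, 215 and 185 in dao, against 180, 155 and 154 in wild type (log2 0.30, adjusted p = 0.169). In both genes the groups did not overlap. ROC6 overlapped, at 34.4, 33.3 and 31.9 in dao and 25.3, 36.3 and 31.95 in wild type (log2 0.11, 95% interval -0.28 to 0.50).

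**Figure D2:**
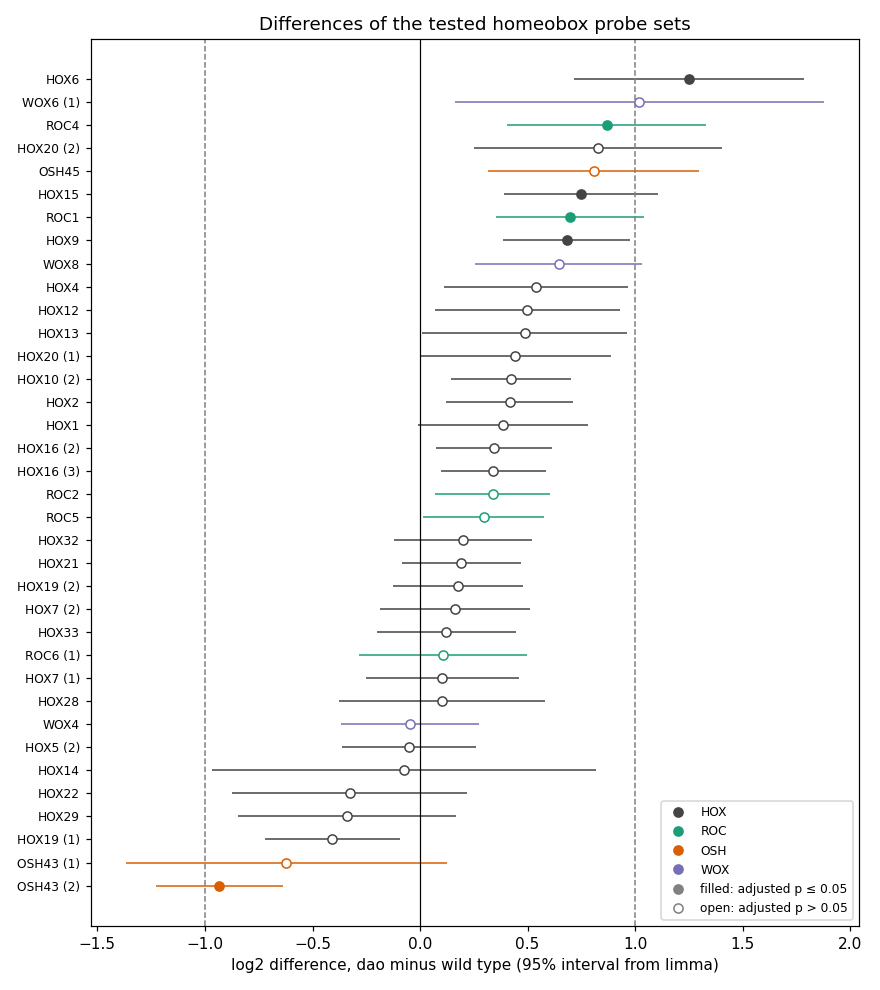
Log2 difference (dao minus wild type) of each of the 36 tested homeobox probe sets with its 95% interval from limma, coloured by class; filled points had an adjusted p at or under 0.05, and dashed lines mark 2-fold. HOX6 is the filled point beyond the 2-fold line, and OSH43 has the 2 lowest points.

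Of the 6 OSH genes 2 had a tested probe set, OSH43 and OSH45. Their mean differences had opposite signs, and neither passed the threshold. OSH43, a KNOX gene described in rice embryos and shoots, had signals of 66.8, 79.2 and 66.8 in dao, against 134, 140 and 131 in wild type on the brighter of its 2 probe sets. The arrays of each group lay close together and the groups lay far apart. The log2 difference of -0.93 (SE 0.13, adjusted p = 0.00724) was just under the 2-fold limit, had the smallest adjusted p of all homeobox probe sets, and passed the limit without dao replicate 2 (log2 -1.02). Over the 17 alternatives its log2 difference ran from -1.02 to -0.70, and its adjusted p was at or under 0.05 in 14.

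The second probe set of OSH43 was lower on average in dao as well, but its arrays scattered. It read 43.9, 66.8 and 51.2 in dao, against 53.3, 133 and 77.2 in wild type, with overlap (log2 -0.62, SE 0.32, adjusted p = 0.269). In both groups array 2 was the highest and array 1 the lowest on it. On adjusted p alone OSH43 was the homeobox gene lower in dao, beside 3.35% of all probe sets tested that were lower by this measure.

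OSH45, a KNOX gene known to be transcribed in several rice organs, had signals of 68.7, 62.9 and 66.2 in dao, against 30.1, 52.2 and 33.9 in wild type. The dao arrays agreed closely, wild-type array 2 was nearest to them, and the groups did not overlap. The log2 difference of 0.81 (SE 0.21) had an adjusted p of 0.0519, just past the limit, and without wild-type replicate 2 it was past the threshold in both respects (log2 1.04, adjusted p = 0.0110).

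Of the 8 WOX probe sets 3 were tested, 0 passed the threshold by limma and 2 had an unadjusted p under 0.05. Over all probe sets tested, these shares were 3.37% and 9075 of 34355. WOX8, also listed as WOX13, had signals of 44.3, 39.4 and 46.1 in dao, against 29.1, 22.99 and 31.5 in wild type. The groups did not overlap, and the log2 difference was 0.64 (SE 0.17, adjusted p = 0.0506). WOX6, which acts with WOX11 in the gravity response of rice shoots, read 31.9, 11.6 and 14.1 in dao, against 6.43, 10.6 and 9.14 in wild type. Dao array 1 stood well above all others, and the log2 difference of 1.02 (SE 0.37, adjusted p = 0.127) was 0.38 without both arrays numbered 1. A second probe set of WOX6 lay at 2.84 to 3.22 on all arrays. WOX4, which maintains the shoot meristem, was at the edge of the tested range, with 5.97 to 7.49 in dao and 5.87 to 7.10 in wild type (log2 -0.05, 95% interval -0.37 to 0.28).

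**Figure D3:**
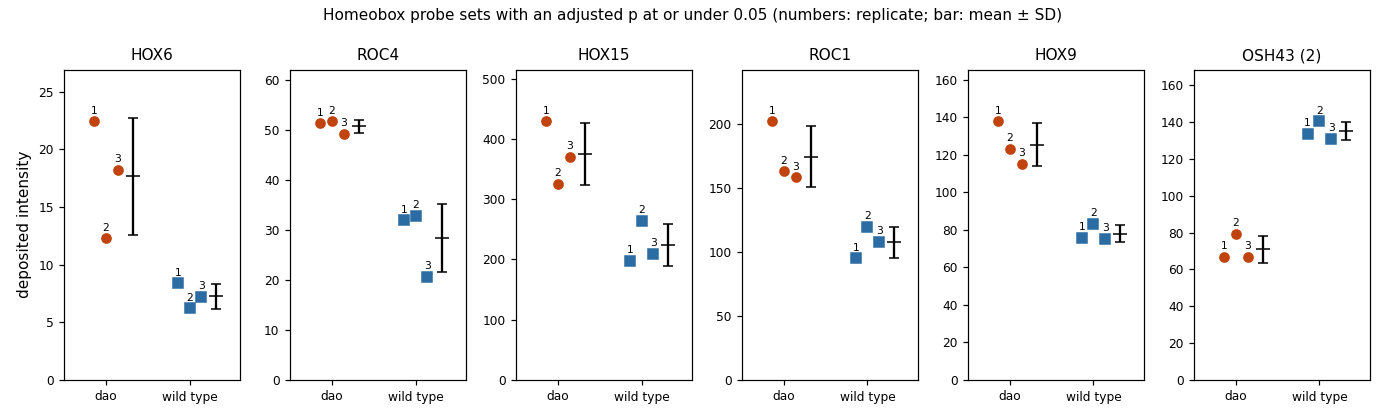
Deposited intensity on each array for the 6 homeobox probe sets with an adjusted p at or under 0.05, dao at the left of each panel and wild type at the right, with replicate numbers at the points and the mean ± SD (n = 3) as a bar; each axis starts at 0. The groups do not overlap in any of the 6 panels, and OSH43, on its brighter probe set, is the panel with lower signals in dao.

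Among the dao arrays, array 1 was the highest in 16 of the 36 tested probe sets and array 2 the lowest in 16. Among the wild-type arrays, array 2 was the highest in 24 of the 36 and array 1 the lowest in 21.

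Over the 36 tested probe sets, 17 had every dao array above every wild-type array, 2 had every dao array below, and 17 overlapped. Among all probe sets tested 31.4% did not overlap, 17.9% wholly higher in dao and 13.5% wholly lower, and among the 18330 tested with 1 listed gene 26.2% and 10.4%. The median log2 difference of the 36 was 0.34, beside -0.01 over all probe sets tested and 0.10 over those with 1 listed gene. A probe set could enter this count through signal in 1 group alone, so the median over all 58 given earlier is the fuller one. For 26 of the 36 the 95% interval of the log2 difference lay between -1 and 1, so that for these probe sets a difference of 2-fold lay outside the interval. The intervals of the other 10 reached past 2-fold. If the third arrays are not independent samples, all these intervals are too narrow. Some of the 26 were also dim, such as WOX4 with signals of 5.87 to 7.49 over all arrays.

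Agreement between probe sets of one gene bears on how far a value stands for the gene. Of the 46 genes 10 had several probe sets, 5 of them with at least 2 tested. HOX16, HOX20, HOX7 and OSH43 had 2 tested probe sets of the same sign, and HOX19 had 2 of opposite sign. Of the 58 probe sets, 11 had names ending in _x_at and 3 in _s_at, the marks of probes that can bind more than 1 transcript. Among the 6 with an adjusted p at or under 0.05, those of HOX15 and OSH43 ended in _s_at, those of ROC1 and ROC4 had no such mark, and those of HOX6 and HOX9 ended in _a_at, for transcripts of one gene.

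**Figure D4:**
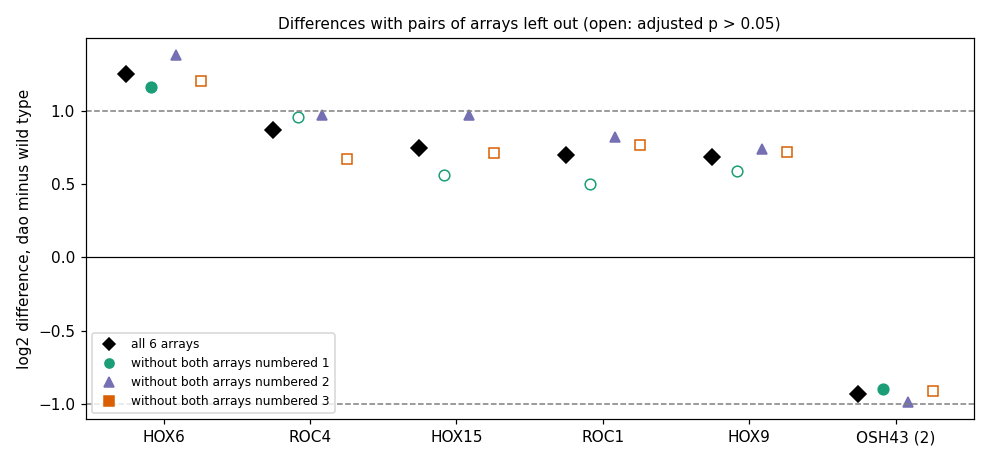
Log2 difference (dao minus wild type) of the 6 homeobox probe sets with an adjusted p at or under 0.05, from all 6 arrays and with both arrays of 1 number left out; open symbols had an adjusted p above 0.05 and dashed lines mark 2-fold. All 6 keep their direction in each fit, HOX6 from 1.16 to 1.38 and OSH43 from -0.99 to -0.90, while without both arrays numbered 3 all symbols are open.

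Other homeobox genes and their partners were counted from a list of names. Of 11 probe sets for 10 such genes, 7 were tested, and 0 passed the threshold or the adjusted p alone by limma. Among all probe sets tested these shares were 3.37% and 9.89%. An unadjusted p under 0.05 was found for 4 of the 7, against 9075 of 34355. The listed genes include the KNOX class genes HOS58, HOS59 and HOS66. HOS58 read 839, 762 and 780 in dao, against 668, 726 and 651 in wild type (log2 0.22, adjusted p = 0.180), and HOS59 read 1619, 1118 and 1378 in dao, against 993, 1118 and 1090 in wild type (log2 0.35, adjusted p = 0.158). HOS58 was wholly higher in dao by a small margin, while dao array 2 of HOS59 was at the wild-type level. HOS66 was lower on average in dao, at 24.7, 22.4 and 26.1 in dao and 32.4, 26.1 and 23.2 in wild type, with overlap (log2 -0.15, adjusted p = 0.635). The zinc-finger homeodomain gene ZHD10 read 54.5, 53.8 and 53.9 in dao, against 34.9, 43.2 and 36.0 in wild type (log2 0.51, adjusted p = 0.0600). TF1, an HD-Zip IV gene like the ROC genes, read 170, 146 and 157 in dao and 104, 160 and 121 in wild type, with overlap (log2 0.32, adjusted p = 0.291).

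KNOX factors are known to act on cytokinin and gibberellin levels in the meristem, and genes of these hormones were counted from a second list. By name only CKX and GA20OX genes were matched, and none of the IPT, LOG, GA2OX and GA3OX genes that the list also named. Of 8 probe sets for 7 genes, 7 were tested and 3 rose past the threshold by limma. This stands beside 2.03% of all probe sets tested and 2.95% of those with 1 listed gene. The 3 were those of the cytokinin oxidases CKX11 (log2 1.62, adjusted p = 0.00156) and CKX4 (log2 1.58, adjusted p = 0.00365) and of the gibberellin 20-oxidase GA20OX3 (log2 1.16, adjusted p = 0.0314). CKX11 had signals of 493, 422 and 452 in dao, against 142, 165 and 138 in wild type. CKX4 read 68.0, 58.5 and 61.6 in dao, against 20.4, 25.1 and 17.9 in wild type. GA20OX3 read 2992, 1342 and 2337 in dao, against 872, 965 and 1005 in wild type. In all 3 the groups did not overlap and the dao arrays ranked 1, 3, 2. MADS13 and the summed pollen, tapetum and leaf markers had the same order, while the carpel and ovule sum and FON1 did not. The part of these markers in the hormone gene differences was not tested. The second probe set of CKX11 was at log2 0.72 and CKX3 at 0.93, both under the 2-fold limit, and CKX5 (0.35) and GA20OX2 (-0.08) did not pass. Of the KNOX genes on these arrays, OSH1, OSH3, OSH6 and OSH71 were under the tested range. OSH43, OSH45, HOS58, HOS59 and HOS66 were within it. A link between KNOX genes and these hormone genes was not tested.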

How the data were processed

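The submitters' processing notes name MAS5, with no version. Between 3.35% and 5.88% of an array's values recurred exactly on another array and the lowest value was 2.17, so how the intensities were made, and whether arrays were normalized together, is not settled. The deposited intensity values are linear, and the sources used here do not say how background was corrected. Control probe sets (123) were left out, intensities were taken to log2 with no further scaling, and probe sets under the 40th percentile of mean log2 signal were dropped. Groups were compared with limma 3.58.1 in R 4.3.3 (lmFit, eBayes with trend, 2-sided, group as the only term) and Benjamini-Hochberg adjustment over 34355 probe sets. The threshold was an adjusted p of 0.05 with a 2-fold difference, after the series' design text. The fit was tested on simulated data. Genes were named by Entrez ID through assembly ASM3414082v1, whose coordinates were not used. The members and lists were chosen with earlier results of these data known. Values on every array are given for members past the threshold and, in each class, for the 3 with the highest signal and the 3 with the smallest adjusted p, with further members by value or range. HOX subfamilies follow textbook classes. List names that also belong to haemoglobin or growth-regulating factor genes (5 probe sets), and to a cystatin gene listed as CP1 (2 probe sets), were left out, a choice made after the data were seen. Deviations of same-numbered arrays from their group means correlated at 0.25, 0.18 and 0.09, and those of differently numbered arrays at -0.23 to 0.13. The numbers were not taken to pair the samples in the main fit, and whether they mark a shared batch is not settled. With the replicate number as a block, 4273 probe sets passed on adjusted p alone by limma, against 3396 in the main fit. Alternatives are listed with their effects in the closing section.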

Additional observations from a re-analysis of the deposited data

How the results depend on the processing

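The count of homeobox probe sets past the threshold, 1 of 36, stood at 1 with no filter, quantile normalization, median scaling, a constant prior variance and the replicate block. It was 0 with log2(signal + 32). It was also 0 with a filter at the 60th percentile and when each gene was given the mean of its probe sets, and in both HOX6 lay under the filter and was not tested. It ran from 0 to 4 when arrays were left out (HOX6, HOX20, OSH45 and WOX6 without both arrays numbered 2). Over all probe sets the count was 1157, against 1136 with the replicate block, 402 with log2(signal + 32), 370 genes on probe-set means, and 0 to 2238 when arrays were left out. Differences near 0 turned their direction for 6 genes. When arrays were left out, HOX14 ran from log2 -0.61 to 0.36, HOX28 from -0.13 to 0.26, HOX5 from -0.17 to 0.040, HOX7 from -0.0063 to 0.21, ROC6 from -0.063 to 0.22 and WOX4 from -0.15 to 0.057. HOX5 was at 0.13 on the mean of its probe sets. The cause was not tested. Detection calls were not used here, so it is unknown which of the dim probe sets lie above background.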
